A study of Mus musculus with 6 samples.

Results

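The lymphocyte lineage transcription factors described here are 10 genes: Tbx21, Eomes, Tcf7, Tox, Gata3, Foxp3, Ikzf2, Bcl11b, Id2 and Id3. They were found by their symbols among the 31053 genes of the deposited matrices, where each has a single entry, and the rule that picks them is their names alone. The data are droplet-based single-cell transcriptomes in which unique molecular identifiers (UMIs, tags that mark single captured RNA molecules) are counted per gene and cell. The labels name YUMM2.1, a mouse melanoma line, as the source and give 3 groups by vector: an Empty vector, Bmal1 WT, and a bHLH form of Bmal1. In every group 3 replicates were marked with hashtag antibodies (h1, h7 and h8 for Empty vector, and h3, h5 and h9 for Bmal1 WT). Bmal1 is a DNA-binding activator of the circadian clock. Age, strain, time of sampling, the cells that received the vectors and whether the material was culture or tissue are not given in the labels. The Bmal1 bHLH files were identical to those of Bmal1 WT in 3 of 3 parts, so that group was not analysed here. Each group was a single droplet channel, so group and channel cannot be told apart, and p-values below measure the spread between hashtag samples.

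T cells and natural killer (NK) cells are distinguished by a small set of DNA-binding proteins that switch lineage programmes on or hold others back. T-bet (the product of Tbx21) and Eomes are related T-box factors that drive cytotoxic programmes in NK and CD8 T cells. TCF-1 (Tcf7) maintains naive, memory and stem-like T cells, whereas Tox accompanies the exhausted state of CD8 T cells under lasting antigen exposure. Bcl11b commits progenitors to the T lineage, Gata3 directs CD4 T cells and type 2 cytokines, Foxp3 defines regulatory T cells, and Helios (Ikzf2) is found in many regulatory and innate-like T cells. Id2 and Id3 lack a DNA-binding domain and neutralise E proteins, and Id2 is required for NK cells.

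Of 4147 Empty vector and 2785 Bmal1 WT barcodes, 3978 and 2386 passed the cell filter, with median depths of 5094 and 7570.5 UMIs, and 3222 and 1621 of them carried exactly 1 hashtag. The libraries shared 5 barcodes. Replicates held between 4655548 and 11873279 UMIs. Lymphocytes were sorted into 6 gates with marker genes, none of them one of the 10 factors: NK cells (892 Empty vector and 369 Bmal1 WT cells), CD8 T cells (373 and 152), conventional CD4 T cells (83 and 23), regulatory T cells (107 and 65), innate-like T cells with a UMI of Trdc or Klra6 (155 and 55) and type 17 T cells with a UMI of Il17a or Cd163l1 (32 and 6). A replicate with fewer than 5 cells in a gate was left out of that gate, which removed Bmal1 WT h5 from the conventional CD4 gate and all but Empty vector h1 and h7 from the type 17 gate.

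Markers that the gates did not use were checked against the labels. In the NK gate, Gzma, a granzyme gene of NK cells, had a UMI in 87.2% (Empty vector) and 88.1% (Bmal1 WT) of the cells, and Trac, the T cell receptor alpha constant gene, in 9.08% and 9.21%. Other T cell genes were not absent there: Trbc1, a T cell receptor beta constant gene, was seen in 81.5% and 85.9% of NK gate cells (35.9% and 61.2% in the CD8 gate), Trbc2 in 34.3% and 33.6%, and Cd28 in 33.3% and 28.5%, while Cd5 and Cd6 were each seen in at most 0.336%. Trac was seen in 93.8% and 95.4% of CD8 gate cells. Lrrc32 and Ccr8, genes typical of regulatory T cells, were seen in 17.8% and 18.7% of Empty vector cells of the regulatory gate and in 26.2% and 21.5% of its Bmal1 WT cells. Sox13 and Blk, which mark gamma delta T cells that make interleukin 17, were nearly absent from the innate-like gate (each in 0.645% of its Empty vector cells and none of its Bmal1 WT cells), and Blk was seen in 56.2% of Empty vector type 17 cells. Tcrg-C1 and Tcrg-C2, T cell receptor gamma constant genes, were seen in 34.2% and 45.2% of Empty vector and 34.5% and 54.5% of Bmal1 WT innate-like cells. They were not limited to that gate: CD8 gate cells had them in 4.29% and 31.1% (Empty vector) and 16.4% and 34.2% (Bmal1 WT). Genes of other cells were also carried. Levels are given in CPM, the UMIs of a gene for every 1000000 UMIs of that gate and replicate. The summed level of 7 macrophage genes was at most 180 CPM in any replicate of the 6 gates. The 5 B cell genes reached 280 CPM (Bmal1 WT, regulatory gate), and the 2 endothelial genes 199 CPM (Empty vector, type 17 gate). The 6-gene dendritic list, made up of MHC class II genes with Flt3, Xcr1 and Siglech, reached 2151 CPM in 1 Empty vector replicate of the regulatory gate, where Xcr1 and Siglech were at 0 in all 3.

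As a reference for free RNA, macrophages and monocytes had median depths of 8383.5 UMIs (Empty vector) and 10946 (Bmal1 WT), above those of every gate of the same group. In them Tbx21, Eomes, Tcf7, Tox, Gata3, Foxp3 and Bcl11b were each seen in at most 1.04% of cells. Ikzf2 was seen in 5.02% and 8.65%, Id3 in 13.6% and 19.7%, and Id2 in 59.0% and 67.1% of these cells. Whether those UMIs were free RNA or the cells' own was not tested, so these shares set no background. Melanoma cells, at 29974 and 47398.5 UMIs per cell, held Tcf7 at 16.7 and 18.1 CPM and Id3 at 45.9 and 54.7 CPM, and no Tox UMI in 56 and 120 cells.

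Tbx21 (chr11:97098071-97115331, minus strand; all positions in GRCm38 with GENCODE M21, and all 10 genes are annotated as protein coding) and Eomes (chr9:118478212-118486132, plus strand) were highest in the NK gate. Eomes stood at 605, 501 and 510 CPM in Empty vector NK cells (h1, h7 and h8) and at 385, 452 and 376 CPM in Bmal1 WT NK cells (h3, h5 and h9). The innate-like gate came next at 152 ± 54.1 CPM (SD, n = 6), below every NK replicate. Its levels in the CD8 gate (76.3 ± 29.7, n = 6) and the conventional CD4 gate (74.5 ± 48.1, n = 5) differed by less than their spread, and it was not detected in the 2 type 17 replicates. Tbx21 was at 182, 147 and 146 CPM in Empty vector NK cells and at 111, 89.7 and 139 CPM in Bmal1 WT NK cells. Its lower neighbours overlapped in every step: innate-like 79.3 ± 26.1, CD8 72.4 ± 23.5 and regulatory 32.9 ± 20.8 CPM.

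Tcf7 (chr11:52252371-52283014, minus strand) was highest in the conventional CD4 gate, at 533, 568 and 656 CPM in Empty vector h1, h7 and h8 and at 404 and 844 CPM in Bmal1 WT h3 and h9. Levels then fell through overlapping steps, from the innate-like gate (289 ± 108, n = 6) and the CD8 gate (189 ± 67.7) to the NK gate (127 ± 31.1) and the regulatory gate (74.2 ± 28.9). All 5 conventional CD4 replicates lay above all 6 regulatory replicates. Tox (chr4:6686353-6991557, minus strand) ran the other way between CD4 and CD8 cells. It was highest in the CD8 gate, at 439, 156 and 353 CPM in Empty vector and 205, 171 and 316 CPM in Bmal1 WT, and lowest in the NK gate (86.8 ± 24.5), with overlap between each pair of neighbours.

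The RefSeq promoter windows of Tcf7 and Tbx21 are shown because they are the only ones, among the 8 members with a window, that hold the E-box CACCTG, the letters bound by the E proteins that Id2 and Id3 neutralise. Each window runs from 250 bases before to 50 after the RefSeq start in GRCm38.p6, both on the minus strand, and the capitals mark the E-box as read on the printed strand (CAGGTG). The Tcf7 window is chr11:52282546-52282845 with the E-box at bases 290 to 295, past the start, and the Tbx21 window is chr11:97115282-97115581 with the E-box at bases 55 to 60.
Tcf7: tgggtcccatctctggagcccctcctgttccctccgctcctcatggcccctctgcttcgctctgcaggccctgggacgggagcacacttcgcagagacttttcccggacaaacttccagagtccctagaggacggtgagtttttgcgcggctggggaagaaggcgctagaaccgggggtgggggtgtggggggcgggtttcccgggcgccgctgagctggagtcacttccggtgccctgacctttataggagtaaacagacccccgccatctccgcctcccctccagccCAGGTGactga
Tbx21: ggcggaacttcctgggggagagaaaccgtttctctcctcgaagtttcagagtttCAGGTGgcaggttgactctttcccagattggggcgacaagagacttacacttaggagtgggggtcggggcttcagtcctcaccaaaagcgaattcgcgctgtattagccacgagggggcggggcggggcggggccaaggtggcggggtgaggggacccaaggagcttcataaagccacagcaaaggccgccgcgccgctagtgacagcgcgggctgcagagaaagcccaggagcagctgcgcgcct
On either strand, CACCTG was in 20.2% of the 32851 RefSeq windows of this length. CACGTG, the E-box that Bmal1 binds, was in 7.15% of all windows and in 0 of the 10 windows of members (some members have several). These matches are descriptions of letters in a window, not of binding.

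Gata3 (chr2:9857078-9890034, minus strand) was highest in the conventional CD4 gate, at 415, 373 and 520 CPM in Empty vector and 606 and 76.8 CPM in Bmal1 WT, the last of these below both type 17 replicates. Regulatory cells held 285 ± 102 CPM, which overlapped that range. NK (108 ± 12.2), innate-like (103 ± 17.7) and CD8 cells (68.5 ± 29.8) formed an overlapping lower group. Bcl11b (chr12:107910403-108003602, minus strand) separated T from NK cells most clearly. NK replicates held 13.8, 9.58 and 5.44 CPM in Empty vector and 1.51, 1.69 and 9.95 CPM in Bmal1 WT, whereas the innate-like gate held 144 ± 27.7, the CD8 gate 342 ± 84.8 and the conventional CD4 gate 560 ± 146 CPM.

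Foxp3 (chrX:7573644-7595245, plus strand) was at 166, 171 and 191 CPM in Empty vector and 271, 212 and 324 CPM in Bmal1 WT regulatory cells. Every other gate lay below all 6 values, and no UMI was found in the 83 and 23 conventional CD4 cells, which allows a share of cells with a UMI of up to 3.61% and 13.0%. Ikzf2 (chr1:69531214-69687245, minus strand) was high in 2 gates. Regulatory cells held 1727, 1782 and 939 CPM in Empty vector and 1403, 1620 and 1493 CPM in Bmal1 WT, and innate-like cells held 1271, 1643 and 1130 CPM and 1322, 2077 and 1130 CPM. These ranges overlapped, and both lay above the type 17 (508 ± 226, n = 2) and CD8 gates (404 ± 153, n = 6), while conventional CD4 (129 ± 44.4) and NK cells (104 ± 10.3) were lowest.

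Id2 (chr12:25093799-25097140, minus strand) was highest in NK cells, at 1915, 1494 and 1790 CPM in Empty vector and 1507, 1676 and 1600 CPM in Bmal1 WT, above every CD8 replicate (1036 ± 180). The other T cell gates overlapped one another between 654 ± 456 (type 17, n = 2) and 1036 CPM. Id3 (chr4:136143497-136145755, plus strand) was rare: the 6 gates held 95 Id3 UMIs in all, against 21934 of Id2, and its highest mean was 17.4 ± 14.1 CPM in the innate-like gate, where the spread covered the CD8 gate (9.56 ± 7.65). Tcf7, Gata3, Foxp3 and Ikzf2 overlap non-coding or other genes on their own strand, so reads in the shared stretches may belong to either gene.

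**Figure D1:**
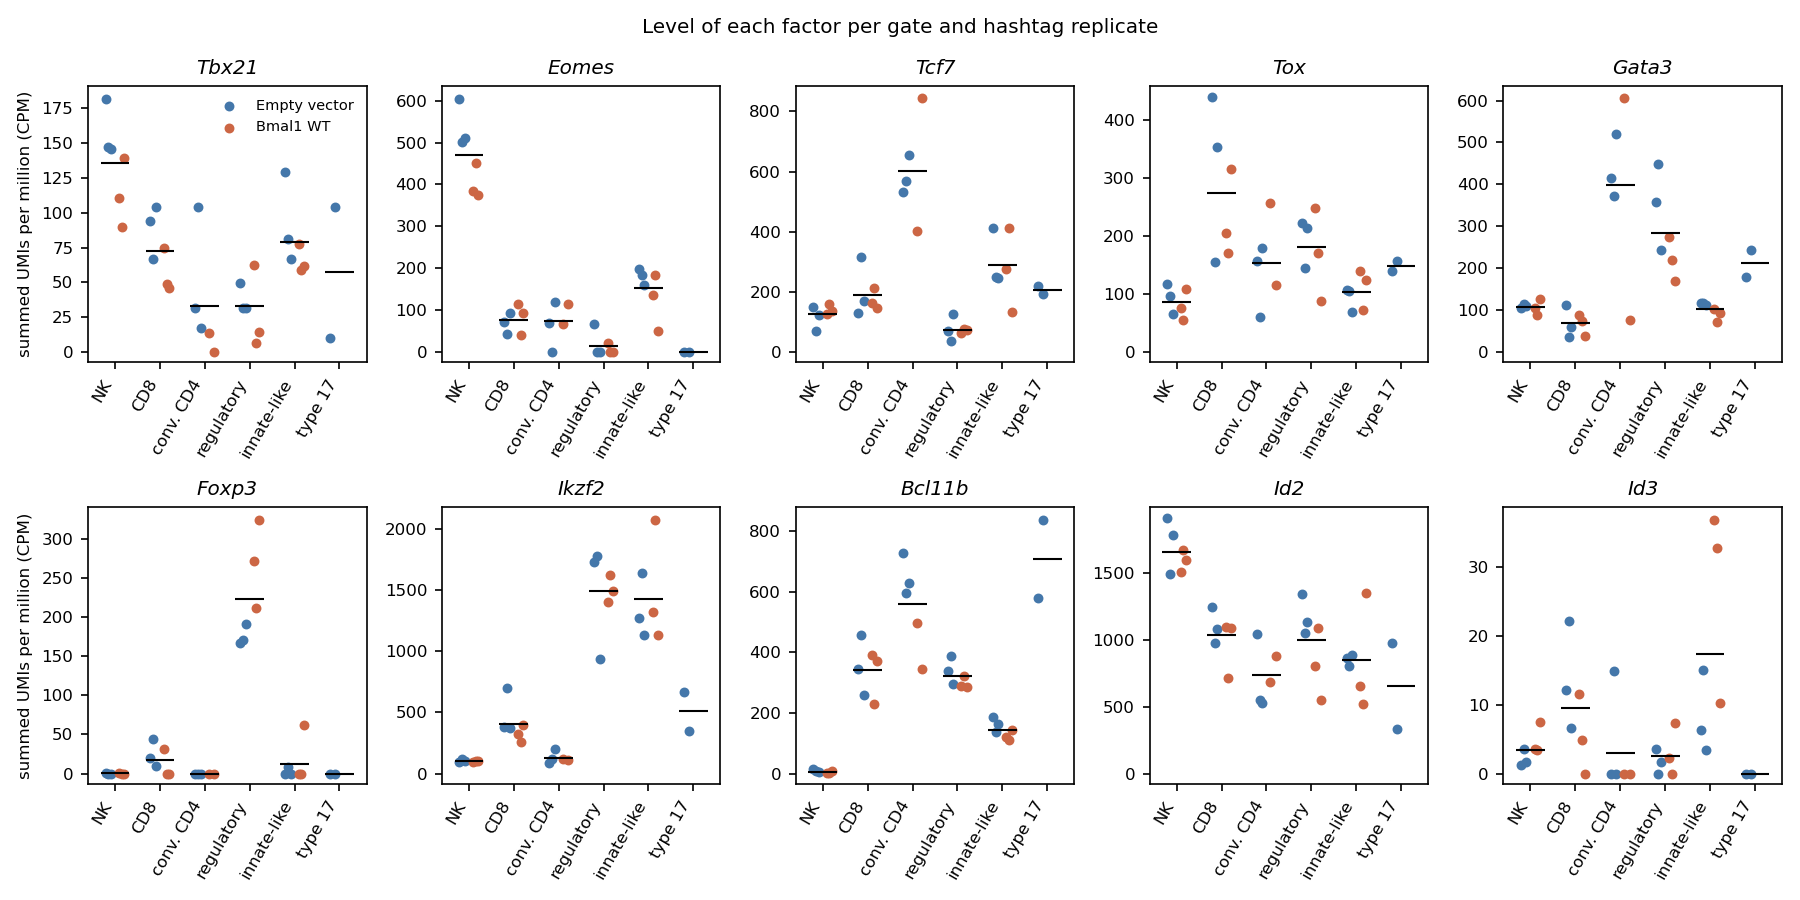
Level of each of the 10 factors (CPM, linear axis from 0) in the 6 gates, with 1 point per hashtag replicate coloured by group and a black line at the mean over replicates. Eomes and Id2 replicates of the NK gate sit above those of every other gate, Foxp3 is near 0 outside the regulatory gate, and Ikzf2 is high in both the regulatory and the innate-like gate.

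Gates were then compared within replicates with edgeR's quasi-likelihood test on summed UMIs over all genes with at least 50 UMIs, with the replicate as a block, and a gene was called at a Benjamini-Hochberg adjusted p under 0.05. A gene with fewer than 50 UMIs in the lower gate entered a test only through the gate where it was high. This held for Foxp3 wherever it was called and for Eomes, Ahr and Maf between type 17 and innate-like cells. It also held for Irf4, Il12rb2, Ccr4, Klrg1, Il13, Il10 and Ikzf4, and for Bach2 in NK cells, where they are named below. Id3 between CD8 and NK cells had fewer than 50 UMIs in each gate and passed only on their sum. The same was true of Zbtb7b (conventional CD4 against CD8) and of Eomes and Bach2 (regulatory against conventional CD4). Their differences are given as descriptions. Between CD8 and NK cells, 8 of 10 members were called (7 of 9 without Foxp3, with Id3 still counted), where 20.1% of the 9605 genes tested were called. Bcl11b was higher in CD8 cells by 5.64 on the log2 scale (SE 0.25), Ikzf2 by 1.91 (0.14) and Tox by 1.66 (0.17), each in 6 of 6 replicates. Eomes was lower in CD8 cells (log2 fold change -2.65, SE 0.20), as were Tbx21 (-0.85, 0.14) and Id2 (-0.70, 0.09), also in 6 of 6. Id3 was higher by 1.80 (0.56, adjusted p = 0.030), in 5 of 6 replicates, a call that was lost without Empty vector h7, Empty vector h8 or Bmal1 WT h3. Foxp3 passed the filter only through the CD8 gate, with 71 UMIs against 2, a ratio of 69.0 (counting interval 18.4 to 581). Tcf7 (0.52, SE 0.21, adjusted p = 0.106) and Gata3 (-0.55, SE 0.19, adjusted p = 0.060) were not called.

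Of 42 other lymphocyte transcription factors tested in the same contrast, 7 were higher and 16 lower in CD8 cells (median log2 fold change -0.20, against 0.06 over all genes). Irf4, an activation-induced factor, was 3.95 higher on that scale (SE 0.33), and Irf8, which acts in NK and myeloid cells, was lower (log2 fold change -3.41, SE 0.22). T-bet and Eomes targets followed the NK gate: 6 of 8 were lower in CD8 cells and 1 was higher, with Prf1 (perforin) at -2.06 (SE 0.21) and Il12rb2 (an interleukin 12 receptor chain) at -2.68 (0.22). Among companions of TCF-1, Il7r (3.75, SE 0.26), the interleukin 7 receptor gene, and Ccr7 (2.93, SE 0.42), a chemokine receptor gene, were higher in CD8 cells.

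Conventional CD4 cells differed from CD8 cells in 7 of 9 members tested (6 of 8 without Foxp3), where 5.53% of genes were called. Gata3 was higher by 2.58 (SE 0.24) and Tcf7 by 1.70 (0.20), each in 5 of 5 replicates, and Bcl11b by 0.69 (0.19) in 4 of 5. Ikzf2 was lower (-1.73, SE 0.24), and so were Tox (-0.92, SE 0.25) and Id2 (-0.63, SE 0.16). Foxp3, which passed the filter only through the CD8 gate, was at 0 against 71 UMIs, at least 3.16-fold lower with a floor of 3 UMIs over the group. The gates were not drawn alike: cells with at least 3 of the 6 regulatory gate genes were kept out of the conventional CD4 gate only. In the CD8 gate such cells numbered 124 of 373 (Empty vector) and 47 of 152 (Bmal1 WT). How much of each difference went with this was not tested. Only Gata3 and Tcf7 were called under every alternative. The Ikzf2, Tox, Id2 and Bcl11b calls were lost with the regulatory gate set by Foxp3, and also with cells thinned to 2000 UMIs. The Tox and Bcl11b calls were lost without Empty vector h1, those of Bcl11b and Id2 without Empty vector h8, and that of Foxp3 without Empty vector h7. Among other factors, 10 of 38 were higher, led by Maf (3.01, SE 0.23) and including Zbtb7b (2.20, SE 0.50), which specifies the CD4 lineage. Nr4a2 (-2.10, SE 0.24) and 2 others of the 38 were lower. The one Gata3 target tested, the chemokine receptor gene Ccr4, had 50 UMIs against 4.

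Regulatory cells differed from conventional CD4 cells in 5 of 9 members (4 of 8 without Foxp3, with Eomes still counted), where 13.3% of genes were called. Foxp3, which passed the filter only through the regulatory gate, had 349 UMIs against 0, at least 34.6-fold higher. Ikzf2 was higher by 3.45 (SE 0.23), and Tcf7 was lower (-2.92, SE 0.23), each in 5 of 5 replicates. Bcl11b was also lower (-0.84, SE 0.19). Eomes was lower in 4 of 5 replicates (-2.22, SE 0.65, adjusted p = 0.018), a call lost without Bmal1 WT h9. Gata3 (-0.47, SE 0.22, adjusted p = 0.174) and Id2 (0.48, SE 0.18, adjusted p = 0.073) were not called. Gata3 was called lower without Empty vector h7 (-0.70, adjusted p = 0.036) and higher with cells thinned to 2000 UMIs, where 1 Bmal1 WT replicate was left (1.19, adjusted p = 0.023), so no direction is given. Of 14 naive, memory and T lineage factors, 6 were lower, including Klf2 (-3.09, SE 0.20), Lef1 (-2.31, SE 0.25) and Bach2 (-2.36, SE 0.49), and 1 was higher. The higher one was Ikzf4, a relative of Helios, with 165 UMIs against 3 (ratio 16.4, counting interval 5.51 to 80.2). Il10, a suppressive cytokine, was higher by 4.78 (SE 0.46), and Klrg1 and Il13 had 78 and 60 UMIs against 0, at least 7.74-fold and 5.96-fold higher.

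Innate-like T cells differed from CD8 cells in 4 of 10 members, where 3.51% of genes were called. Ikzf2 was higher by 1.86 (SE 0.16) in 6 of 6 replicates. Tox (-1.43, SE 0.22) and Bcl11b (-1.19, SE 0.16) were lower in 6 of 6. Eomes was higher by 1.06 (SE 0.25) in 5 of 6, a call lost without any one of Empty vector h1, h7 or h8 or Bmal1 WT h5. Ahr, a ligand-activated factor of innate-like lymphocytes, was higher by 1.93 (SE 0.18), and Irf4 was lower (-2.82, SE 0.45), among 3 higher and 4 lower of 40 other factors. Type 17 cells could be compared with innate-like cells only in Empty vector h1 and h7, which left 1 residual degree of freedom, and 3 of 8 members were called (2 of 7 without Eomes), where 8.13% of genes were. Bcl11b was at 578 and 836 CPM in type 17 cells, higher by 2.09 (SE 0.37). Ikzf2, at 667 and 348 CPM, was lower (-1.50, SE 0.30). Eomes had 0 UMIs against 124, at least 10.0-fold lower. Of 3 type 17 and innate-like factors tested, 2 were higher, Maf (4.71, SE 0.41) and Rora (3.88, SE 0.38). The other, Ahr, was lower (-1.61, SE 0.55), with 9 UMIs against 110.

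The innate-like gate joined unlike cells. Cells with Klra6 but no Trdc (65 Empty vector and 29 Bmal1 WT cells) held Ikzf2 at 2124 and 1880 CPM, and cells with Trdc but no Klra6 (72 and 20 cells) held it at 610 and 926 CPM. Gata3 ran the other way, at 80.5 and 61.2 against 150 and 160 CPM, and so did Id2, at 597 and 596 against 960 and 1027 CPM. Trac was seen in 90.8% and 89.7% of the Klra6 cells and in 33.3% and 25.0% of the Trdc cells. These sums over cells were not tested.

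The CD8 gate was split by Pdcd1 and Lag3, inhibitory receptor genes of activated and exhausted T cells, into cells with a UMI of either (236 Empty vector and 105 Bmal1 WT cells) and cells with neither (137 and 47). Tcf7 stood at 53.0, 126 and 57.7 CPM (Empty vector h1, h7 and h8) and 83.5, 137 and 0 CPM (Bmal1 WT h3, h5 and h9) in the first and at 407, 477 and 467 CPM and 340, 663 and 745 CPM in the second. Tox was at 528, 241 and 446 CPM and 267, 190 and 374 CPM in the first and at 119, 82.3 and 102 CPM and 64.8, 57.2 and 78.4 CPM in the second. Neither gene's ranges overlapped. In the blocked test 4 of 9 members were called, where 9.11% of genes were: Tcf7 was lower (-2.78, SE 0.28), Tox was higher by 2.02 (SE 0.20), Id2 was higher by 0.94 (SE 0.19) in 6 of 6 replicates, and Bcl11b was lower (-0.58, SE 0.18, adjusted p = 0.039) in 5 of 6. The Bcl11b call was lost without any one of Empty vector h1, h7 or h8 or Bmal1 WT h3. Tbx21 (0.11, SE 0.26, 95% interval -0.40 to 0.62) and Eomes (-0.67, SE 0.30, adjusted p = 0.179) were not called. Ccr7, a companion of TCF-1, was lower (-3.34, SE 0.41), and so were Satb1 (-3.14, SE 0.25), Klf2 (-2.59, SE 0.27) and Lef1 (-2.49, SE 0.24), while Nr4a2 was higher by 1.82 (SE 0.25). Cells with either receptor gene were deeper (medians 6205.5 and 7509 UMIs against 4340 and 5680), and the Tcf7, Tox and Id2 calls also held with cells thinned to 2000 UMIs.

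NK cells were split by a UMI of Gzmc, a granzyme gene of strongly activated lymphocytes (57 Empty vector and 68 Bmal1 WT cells with it). Eomes was at 414, 258 and 290 CPM and 278, 371 and 221 CPM in cells with Gzmc and at 627, 542 and 533 CPM and 449, 479 and 421 CPM in the rest, without overlap. Tcf7 was at 11.4, 29.6 and 23.2 CPM and 65.2, 46.3 and 66.2 CPM against 165, 76.8 and 133 CPM and 162, 198 and 157 CPM, also without overlap. Of 8 members tested, 3 were called, where 10.1% of genes were: Eomes (-0.74, SE 0.11), Tcf7 (-1.78, SE 0.22) and Id2 (-0.29, SE 0.08) were lower, each in 6 of 6 replicates. Tbx21 was not called (-0.23, SE 0.18, 95% interval -0.57 to 0.12). Other factors were lower in 18 of 39 and higher in 0, with a median of -0.55 against -0.06 over all genes, and they included Klf2 (-2.05, SE 0.16) and Bach2 (-1.51, SE 0.26), both factors of resting lymphocytes. Cells with Gzmc were deeper (medians 8075 and 11116 UMIs against 4351 and 5834). With cells thinned to 2000 UMIs, 0 of 7 members and 39 genes were called by edgeR (422 genes at an unadjusted p under 0.05), in a fit that also kept only 2 of the 3 Bmal1 WT replicates. Eomes and Tcf7 kept their direction there and in 17 of 17 alternatives, between -0.81 and -0.38 (highest adjusted p = 0.754) and between -2.11 and -1.19 (highest adjusted p = 0.187). The Id2 call was also lost without Empty vector h1 or Bmal1 WT h3.

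**Figure D2:**
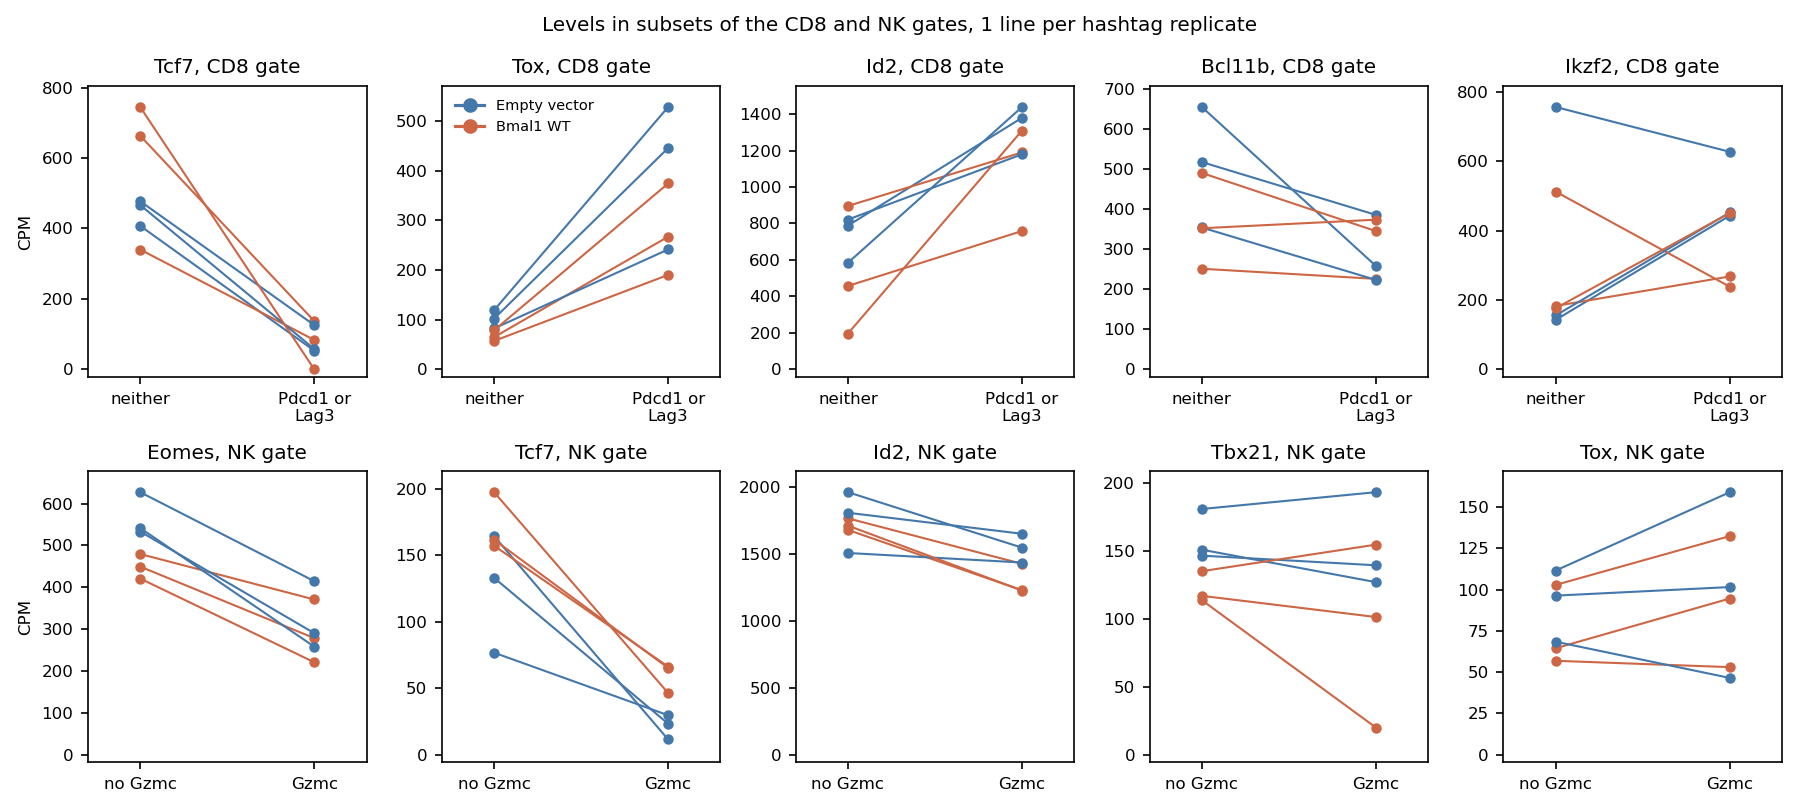
Level (CPM) of 5 factors in CD8 cells with and without a UMI of Pdcd1 or Lag3 and of 5 factors in NK cells with and without a UMI of Gzmc, where each line joins the values of 1 hashtag replicate. Tcf7 is lower in 6 of 6 replicates of both splits, Tox is higher in 6 of 6 CD8 replicates, and Eomes is lower in 6 of 6 NK replicates.

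Within the regulatory gate, a Foxp3 UMI was found in 38 of 107 cells of Empty vector and 30 of 65 of Bmal1 WT, against 1 of 892 and 1 of 369 NK cells. Cells with a Foxp3 UMI were deeper, at medians of 8128 and 11620 UMIs against 5777 and 6327. Ikzf2 was seen in 37 of 38 and 30 of 30 of them and in 36 of 69 and 14 of 35 of the rest, at 2380 and 2039 against 434 and 422 CPM. Despite their greater depth, Tcf7 was seen in 2 of 38 and 0 of 30 of them, against 19 of 69 and 14 of 35, and Eomes in 0 of 38 and 0 of 30, against 3 of 69 and 2 of 35. Gata3 was at 217 and 237 CPM in cells with Foxp3 and at 387 and 252 CPM in the rest. Lrrc32, Klrg1 and Ikzf4 had higher shares beside Foxp3 in both groups: Klrg1, for one, was seen in 17 of 38 and 11 of 30 cells against 2 of 69 and 0 of 35. Ccr8 did not do so in both: it was seen in 5 of 38 and 10 of 30 cells with Foxp3, against 15 of 69 and 4 of 35 without. Il10 was at 161 and 67.4 CPM with Foxp3, against 403 and 11.8 CPM without. The 403 CPM came from 232 UMIs, of which 76 were in 1 cell. By share of cells Il10 was higher beside Foxp3 in both groups, in 16 of 38 and 5 of 30 cells against 14 of 69 and 2 of 35. Il13, a type 2 cytokine, ran the other way, in 0 of 38 and 0 of 30 cells with Foxp3 against 10 of 69 and 6 of 35 without. The gate defined by activation genes thus held cells with and without the Foxp3 pattern in both groups, and the shares were not tested over cells. In the CD8 gate, 17 of 373 and 3 of 152 cells had a Foxp3 UMI, of which 14 and 3 also had at least 3 of the 6 genes that set the regulatory gate, and 16 and 3 had Ikzf2.

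**Figure D3:**
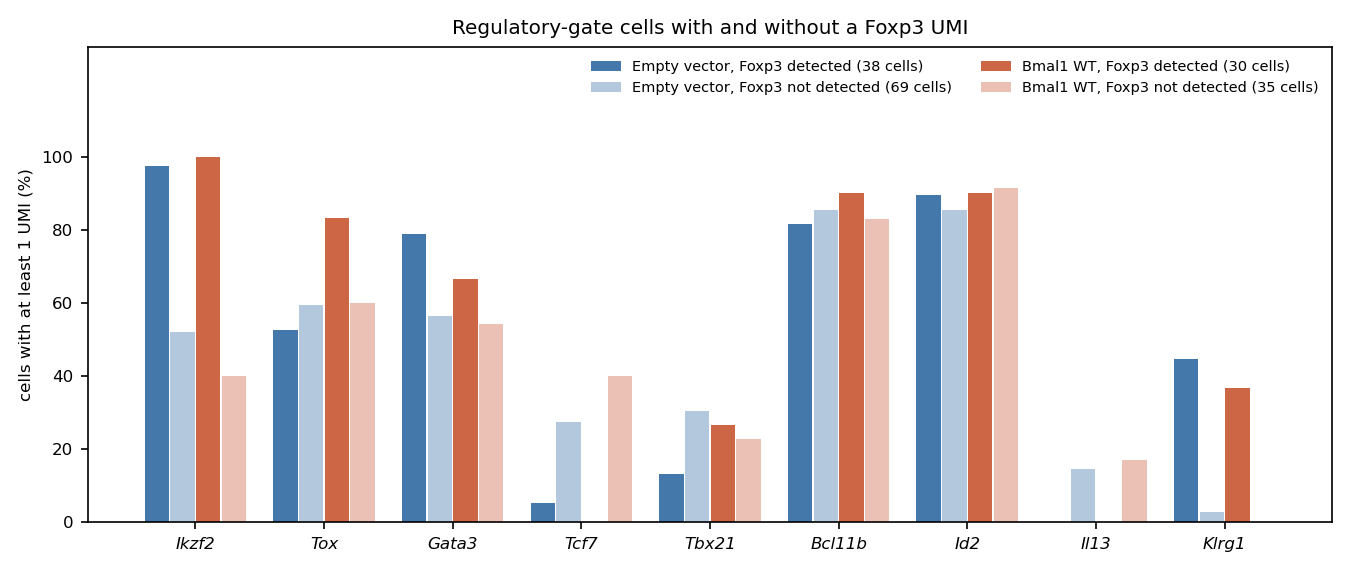
Percent of regulatory gate cells with a UMI of each of 9 genes, in cells with and without a Foxp3 UMI, for Empty vector and Bmal1 WT. Ikzf2 and Klrg1 have higher shares in cells with Foxp3 in both groups, Tcf7 and Il13 have lower ones, and Bcl11b and Id2 lie between 81.6% and 91.4% in all 4 sets of cells.

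Co-detection was measured with each cell thinned to 2000 UMIs, since a deeper cell shows more gene pairs. In NK cells, Tbx21 and Eomes were seen together in 15.7% (Empty vector) and 8.76% (Bmal1 WT), against products of the single shares of 15.8% and 9.86%. Per replicate the shares were 17.6%, 14.2% and 15.1% for Empty vector, against 11.1%, 8.05% and 1.69% for Bmal1 WT. All Empty vector values lay above all Bmal1 WT values, a difference of -8.69 percentage points with an exact permutation p of 0.1 (two-sided), the smallest that 3 against 3 replicates allow. Without thinning, in the deeper Bmal1 WT cells, the difference was -3.78 points (exact permutation p = 0.8). For Tcf7 and Tox in CD8 cells the share with both lay below the product of the single shares in each group. Both were found in 5.22% (Empty vector) and 4.73% (Bmal1 WT) of cells, against products of 10.7% and 10.4%, with Tox alone in 42.6% and 31.8% and Tcf7 alone in 17.1% and 23.6%. Tcf7 and Ikzf2 together were in 4.06% and 4.73%, against products of 7.44% and 6.71%, and Tcf7 and Id2 in 9.86% and 14.2%, against 15.8% and 20.3%. Distances from the products were not tested. For Tcf7 and Tox the groups overlapped (difference -1.42 points, exact permutation p = 0.4).

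Foxp3 and Ikzf2 were seen together in 21.2% and 26.2% of regulatory gate cells, above products of 12.5% and 18.4%, and Foxp3 without Ikzf2 in 0.962% and 6.15%. Over all CD4 cells the share with both ran from 11.1% to 13.7% in Empty vector and was 18.2%, 27.8% and 14.3% in Bmal1 WT, a difference of 7.79 points with an exact permutation p of 0.1, which rose to 0.5 at 1000 UMIs per cell. Tcf7 and Foxp3 were seen together in 0 of 104 and 0 of 65 cells at this depth. Id2 and Id3 were seen together in 0% to 3.92% of CD8 cells per replicate (difference 0.72 points, exact permutation p = 0.7). Id3, with or without Id2, was in 5.10% and 6.86% of macrophages at the same depth. Whether either share was background was not tested. These 4 pairs were the ones compared between groups, and adjustment over them cannot bring any p under 0.1.

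**Figure D4:**
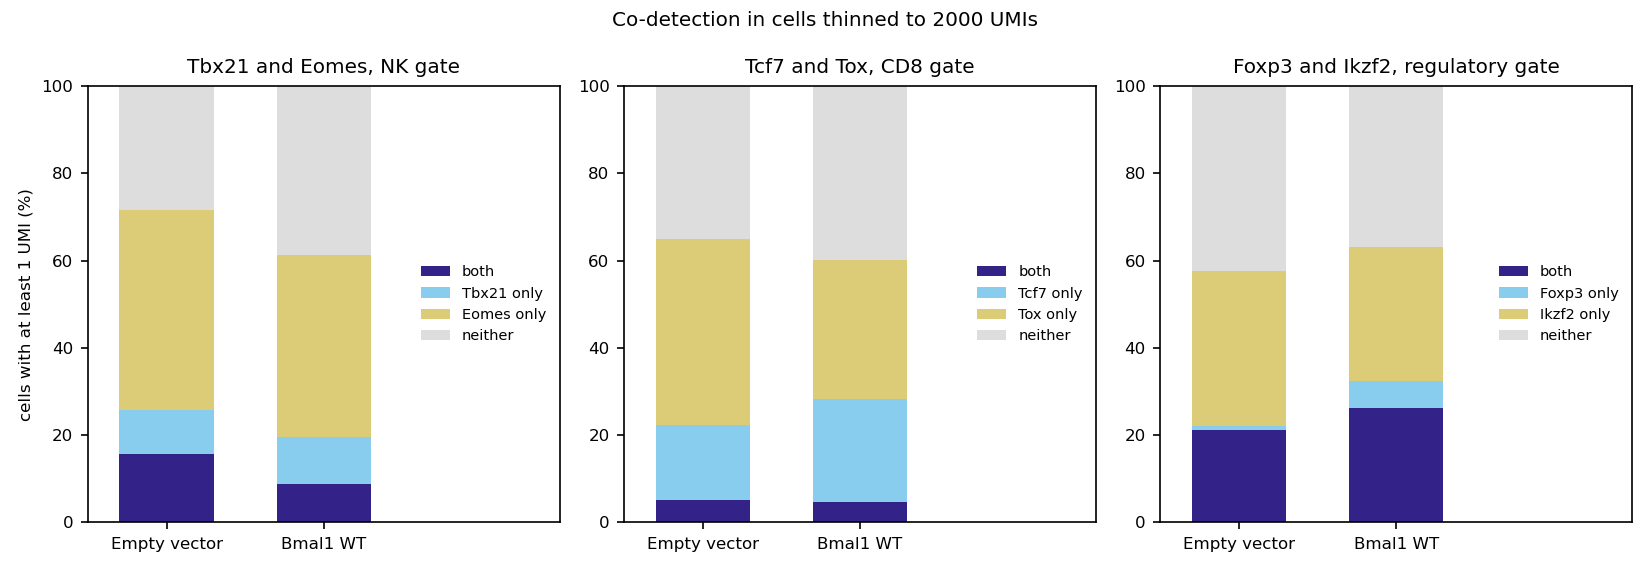
Stacked shares (percent of cells, each thinned to 2000 UMIs) of cells with both genes, the first only, the second only or neither, for Tbx21 and Eomes in NK cells, Tcf7 and Tox in CD8 cells and Foxp3 and Ikzf2 in regulatory gate cells, by group. Cells with both Tbx21 and Eomes make up 15.7% (Empty vector) and 8.76% (Bmal1 WT) of the NK bars, and Foxp3 without Ikzf2 is rare.

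Bmal1 WT was compared with Empty vector in each gate to ask whether Bmal1 status went with the level of these factors. No member was called in any gate by edgeR (0 of 8 tested in NK, 0 of 9 in CD8, 0 of 6 in conventional CD4, 0 of 8 in regulatory and 0 of 8 in innate-like cells), where 0.115%, 0.0130%, 0%, 0.0376% and 0% of all genes were called, and DESeq2 called none either, though it gave an adjusted p for only 4 members in NK and none in conventional CD4 cells. At an unadjusted p under 0.05 stood 3 members in NK, 1 in CD8, 0 in conventional CD4, 3 in regulatory and 0 in innate-like cells. Over all genes there were 1045, 686, 167, 438 and 374. Members not tested held fewer than 50 UMIs in the gate: Id3 in all 5, Foxp3 in the NK, conventional CD4 and innate-like gates, Tbx21 in the conventional CD4 gate, and Eomes in the conventional CD4 and regulatory gates.

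In NK cells both T-box factors separated the groups, with the highest Bmal1 WT replicate under the lowest of Empty vector, though neither passed the test. Eomes had a log2 fold change of -0.42 (SE 0.13, adjusted p = 0.197) and Tbx21 one of -0.50 (SE 0.17, adjusted p = 0.245). They and Bcl11b were the 3 members under an unadjusted p of 0.05, though Bcl11b is given as a description for the reason stated below. Such separation was seen for 17.5% of the 8695 genes. Under all 17 alternatives for each gene the direction held, between -0.50 and -0.31 for Eomes (adjusted p 0.081 to 0.754) and between -0.62 and -0.39 for Tbx21 (0.0998 to 0.768). Gzmc cells, in which Eomes was lower, made up 5.49%, 8.77% and 5.65% of Empty vector and 22.4%, 9.78% and 17.5% of Bmal1 WT NK cells. With them left out, an alternative chosen after seeing the data, Eomes was at -0.33 (SE 0.12, adjusted p = 0.542) and Tbx21 at -0.40 (SE 0.16, adjusted p = 0.551). Over all NK gate cells, Bcl11b was at -1.70 (SE 0.65, adjusted p = 0.316) on 57 UMIs in both groups together. It fell below the filter on UMIs without Empty vector h1, h7 or h8, but passed it without Bmal1 WT h3, h5 or h9. Its entry into the test thus rested on Empty vector, and its difference is given as a description. Tcf7 was at 0.28 (SE 0.22, adjusted p = 0.635).

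In CD8 cells 0 of 9 members separated the groups, where 14.3% of genes did. Tbx21 was at -0.67 (SE 0.26, adjusted p = 0.530), Ikzf2 at -0.55 (SE 0.25, adjusted p = 0.557) and Tox at -0.56 (SE 0.31, adjusted p = 0.618). Cells with Pdcd1 or Lag3 were 67.1%, 47.2% and 59.6% of Empty vector and 62.1%, 73.1% and 76.5% of Bmal1 WT CD8 cells, and within them, an alternative also chosen after seeing the data, the values were -0.73, -0.67 and -0.65 with adjusted p of 0.632, 0.632 and 0.644. In regulatory cells Foxp3 had a value of 0.60 (SE 0.23, adjusted p = 0.508) and every Bmal1 WT replicate lay above every Empty vector replicate, the 1 of 8 members without overlap, where 13.8% of genes had none. Gata3 (-0.59, SE 0.27, adjusted p = 0.580) and Id2 (-0.53, SE 0.23, adjusted p = 0.562) had negative values with overlapping groups. In conventional CD4 cells Bcl11b lay below without overlap (-0.55, SE 0.27, adjusted p = 0.563; 1 of 6 members, 30.0% of genes), with 3 against 2 replicates. In innate-like cells the 1 of 8 was Gata3 (-0.35, SE 0.27, adjusted p = 0.766; 14.3% of genes). The difference between the CD8 and NK gates in these changes was called for 0 of 10 members, where 0.0104% of 9605 genes were called. By unadjusted p, 263 genes and 1 member, Bcl11b (1.71, SE 0.60, adjusted p = 1), stood under 0.05, and DESeq2 called none.

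**Figure D5:**
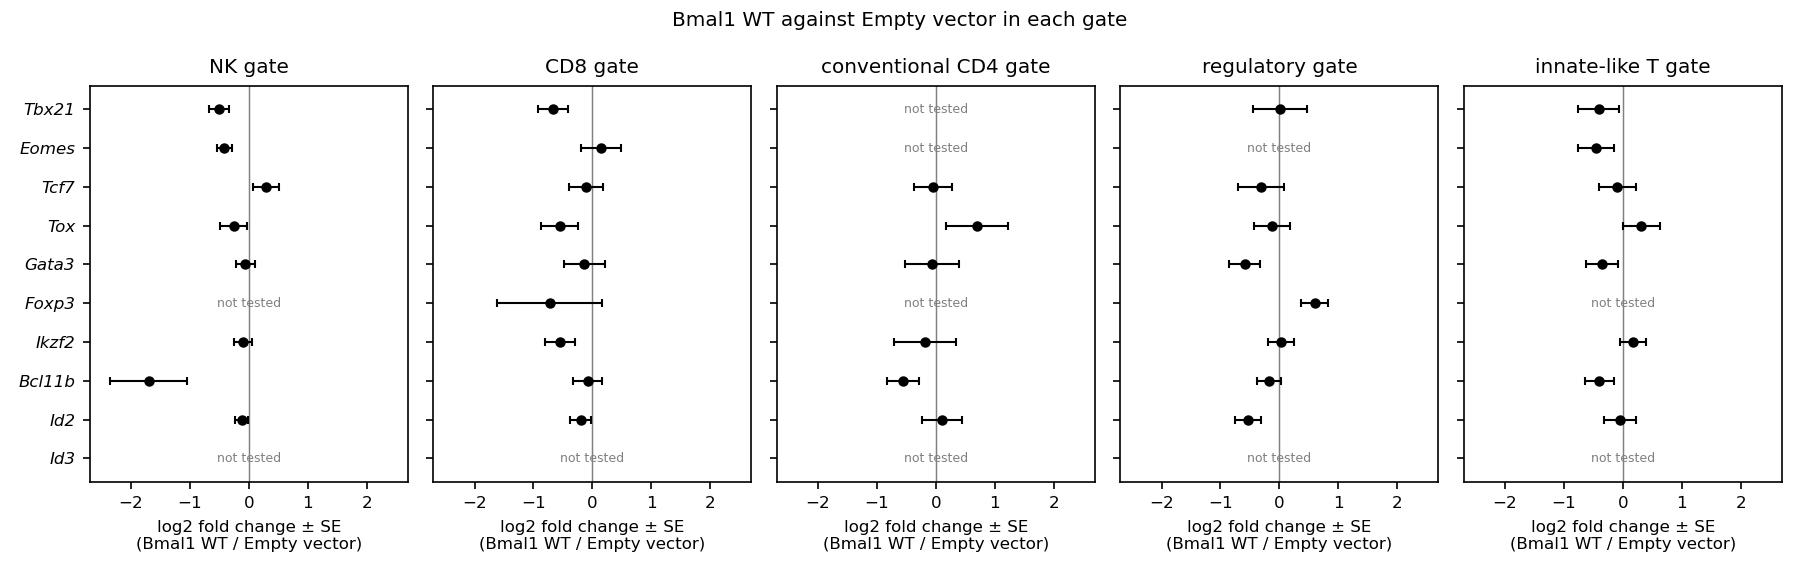
Log2 fold change of each tested factor in Bmal1 WT against Empty vector in 5 gates, with bars of 1 SE from edgeR's quasi-likelihood test. No value passes an adjusted p of 0.05, and the T-box factors are below 0 in the NK gate (Eomes -0.42, Tbx21 -0.50).

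The other factors and targets gave 1 call between groups. Among the other transcription factors 0 were called in any gate (39, 38, 22, 36 and 32 tested), with medians of -0.30 in NK and -0.36 in CD8 cells, against -0.09 and -0.07 over all genes. Il4, a type 2 cytokine and a target of Gata3, was lower in Bmal1 WT regulatory gate cells. It had 20, 15 and 30 UMIs (70.8, 80.0 and 52.4 CPM) in Empty vector and 2, 0 and 0 UMIs in Bmal1 WT. That was 22.2-fold more per UMI sequenced in Empty vector (counting interval 5.92 to 188, edgeR adjusted p = 0.037). Those UMIs came from 8 and 1 cells. Il4 passed the filter on UMIs only through Empty vector, the group where it was high, so its difference is given as a description. In this gate 0 genes were called without Empty vector h1 or without any single Bmal1 WT replicate. The only other gene called in the gate was Cx3cr1, named here after its value was seen.

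The genes whose levels ran most like each factor were found over 31 replicate-by-gate values, as Pearson's r of log2(CPM + 10) among 7572 genes. These points share libraries, depth and gates, and r is given as a description. Bcl11b ran with Trac (0.95), Plcg1 (0.94) and Cd3e (0.94), of which Cd3e set the gates. Eomes ran with Ugcg (0.93), Arsb (0.88) and Spry2 (0.87), and Tbx21 with Chsy1 (0.86), Il2rb (0.83) and Itga1 (0.80). Foxp3 ran with Neb (0.93), Bmyc (0.88) and Pgk1 (0.87). For Tcf7 the nearest were Sidt1 (0.86), Klf3 (0.86) and Ssh2 (0.85), and for Tox they were Adgrg1 (0.78), Gm47015 (0.73) and Pdcd1 (0.72). Gata3 ran with St3gal1 (0.86), Cd4 (0.83, a gate gene) and Itm2c (0.75), and Ikzf2 with Il2ra (0.75, a gate gene), Itgae (0.73) and Cep85l (0.70). Id2 ran with Zcchc24 (0.80), AW112010 (0.78) and Camk2n1 (0.75), and the sparse Id3 with Ly6c2 (0.64), Crtam (0.64) and Slamf7 (0.58).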

How the data were processed

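The files the authors deposited hold raw UMI counts, which Cell Ranger 6.1.2 (per the file headers) made on mm10 (per the labels) from 10x Genomics Chromium 3′ libraries with hashtag antibodies. For aligner settings and use of strand, the sources used here give nothing. Of 3 groups and 6 samples, 2 libraries were analysed. Cells with at least 200 genes and at most 20% mitochondrial UMIs were kept. Hashtags were assigned by a mixture of 2 Gaussians on log counts (scikit-learn 1.9.0); cells with several hashtags entered no replicate, and no doublet caller was run. A T or NK cell had more lymphoid than other-lineage genes and at most 3 of the latter. T cells had at least 2 of 3 Cd3 genes; NK cells had fewer than 2, with at least 2 of Ncr1, Klrb1c, Klre1 and Klra8. CD8 cells had Cd8a or Cd8b1 without Cd4, CD4 cells the reverse, and the regulatory gate had at least 3 of Il2ra, Ctla4, Tnfrsf4, Tnfrsf18, Izumo1r and Tnfrsf9. UMIs were summed per gate and replicate. Genes with at least 50 UMIs were tested with library sizes set to total UMIs in edgeR 4.0.16 under R 4.3.3, with Benjamini-Hochberg adjustment; SE is the log2 fold change over the root of F. DESeq2 1.42.0, TMM scaling, other filters, hashtag calls, gates, thinning and leaving out each replicate were alternatives. The test was tried on simulated data for 3 of the comparisons. Counting intervals and floors (95%, exact; 3 UMIs) cover counting error only. All 10 members are described; from lists of 48 other factors and 23 targets, called genes were named, at most 5 per direction and comparison, and 1 of them is not reported here. The members and lists were chosen with earlier results of these data known.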

Additional observations from a re-analysis of the deposited data

How the results depend on the processing

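Of 34 member differences called between gates or subsets, 34 kept their direction under every alternative that gave a value, 20 stayed called under all of them, and 22 of the 31 with leave-one-out fits were called in each. No member was called between Bmal1 WT and Empty vector in 780 alternative fits of 49 results. Between conventional CD4 and CD8 cells 7 members were called, against 4 with DESeq2, 2 with cells thinned to 2000 UMIs, 2 with the regulatory gate set by Foxp3, and 4 to 7 without single replicates. With thinning, 0 of the 3 members that could still be tested were called between type 17 and innate-like cells (Ikzf2 lost its call; Bcl11b and Eomes were not tested), and 0 of 3 calls were left between NK cells with and without Gzmc. It also turned Gata3, regulatory against conventional CD4, from -0.47 to 1.19, and Gata3 was called in opposite directions by this fit and by the one without Empty vector h7 (-0.70). Tcf7 and Tox co-detection turned from -1.42 to 0.118 points with the stricter cell filter (at least 500 genes, at most 10% mitochondrial UMIs), and that of Id2 and Id3 ran from -0.324 to 1.64 points without single replicates (without Bmal1 WT h5 and h9). The causes were not tested.

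Counts of all genes called moved more. Between groups they ran from 0 to 209 in NK cells (10 in the fit described above; 209 with no filter on genes, 99 with DESeq2, 173 without Empty vector h7, 0 without Empty vector h1 or Bmal1 WT h5), 0 to 148 in CD8 (1), 0 to 38 in conventional CD4 (0), 0 to 135 in regulatory (2) and 0 to 53 in innate-like cells (0), and 0 to 21 for the difference between gates (1). Between gates, thinning took 1934 to 924 (CD8 against NK), 423 to 129 (conventional CD4 against CD8), 779 to 76 (regulatory against conventional CD4), 298 to 118 (innate-like against CD8), 234 to 37 (type 17), 702 to 104 (CD8 subsets) and 875 to 39 (NK subsets). TMM moved the share of calls that were higher from 53.0% to 40.4% (conventional CD4 against CD8) and from 80% to 100% (NK cells between groups), and DESeq2 moved it from 50% to 61.7% (type 17), 62.4% to 49.6% (CD8 subsets) and 42.5% to 58.7% (NK subsets). DESeq2 or TMM shifted the median of all genes by about 0.1 in the conventional CD4, innate-like and NK comparisons between groups and in conventional CD4 against CD8.

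No paired analysis was possible because the hashtags of Empty vector and Bmal1 WT share no number. Gate comparisons carried the replicate as a block; without it, the calls of Foxp3 and Tox (conventional CD4 against CD8), Eomes (regulatory), Bcl11b (CD8 subsets) and Id2 (NK subsets) were lost. Id3 rests on 95 UMIs, the conventional CD4 gate on 83 and 23 cells and the type 17 gate on 32 and 6 cells.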
